A study of Mus musculus with 48 samples.

Results

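The immunoglobulin genes were followed through 72 probe sets of the Affymetrix MG-U74Av2 mouse array, of 12422 probe sets that were not controls. A probe set entered when its annotated gene symbol was a heavy chain constant or variable segment (Ighm, Ighd, Ighg3, Igha, Ighv), a kappa or lambda segment (Igkv, Igkj, Igkc, Iglv, Iglc) or Jchain. Of these, 60 carried 1 symbol and 12 carried several, and each of the 12 was kept as a unit. By class they were 16 sets named Ighm, 1 Ighd, 7 Ighg3, 3 Igha, 3 heavy chain sets with several symbols, 6 heavy variable sets, 25 kappa variable sets, 8 kappa sets with several symbols, 2 lambda sets and Jchain. A further 6 probe sets lay just outside the rule, 3 with the symbol Igk alone or beside Asb2 and 3 with the older symbol Igh-VS107. No measured value was used to choose the members.

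An antibody is built from 2 heavy and 2 light chains, and each chain joins a variable segment, which binds antigen, to a constant segment, which sets the antibody class. Resting B cells carry the mu and delta heavy chains (Ighm, Ighd) on their surface, while plasma cells secrete antibody in bulk and can switch to gamma (Ighg) or alpha (Igha) chains. The spleen is a main site of both cell types, IgA is the typical antibody of mucosal surfaces such as the airways, and the J chain links the units of secreted IgM and IgA. Because each B cell uses only 1 heavy and 1 light variable segment, a tissue's RNA is a mixture of many segments, and family members with similar sequence can bind the same probes. The suffix _f_at marks a probe set that the manufacturer designed to read several members of a family, and 32 of the 72 members carry it, 15 heavy chain and 17 kappa. A symbol on such a set is therefore a name for a family signal.

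The mice were A/J and C57BL/6J inbred males 3 months old, described by the submitters as littermates and as biological replicates. Liver, heart, spleen and lung were taken at time 1 and time 2, which the labels do not define further, and 3 arrays were run for each of the 16 groups of strain, tissue and time from about 20 µg of total RNA each. No treatment or engineered allele is given for either strain. Within a tissue and time both strains shared an array run by the codes in the labels, whereas the times of a tissue lay in different runs, so time and run cannot be told apart. All 4 tissues shared a run at time 2 only.

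The arrays' medians lay between 8.86 and 9.01 on the deposited log2 scale, and array number rather than read depth sets the precision. Averaged B cell markers (6 of 7 measured) ran from 10.82 to 11.64 in spleen against 9.01 to 9.85 in lung, 8.66 to 9.11 in liver and 8.73 to 8.95 in heart, so the spleen label matched its defining cells. Hepatocyte markers (8 of 10 measured) averaged 13.25 to 13.67 in liver, cardiomyocyte markers (7 of 8) 13.42 to 14.07 in heart and lung epithelium markers (5 of 7) 12.996 to 13.19 in lung. Exocrine pancreas markers (8 of 15 measured) averaged from 9.33 to 10.06 in 7 of the spleen arrays, but 12.08 to 13.18 in a further 5. The 5 were A/J time 1 replicates 1 and 3, C57BL/6J time 1 replicate 2, and C57BL/6J time 2 replicates 1 and 3. Strain and time counts of the members in spleen are given with and without them, and other spleen counts with them only. At time 1, several probe sets shared the array's highest value in each of the 18 liver, lung and spleen arrays, between 14.31 and 14.40. At that shared value stood Ighm 93583_s_at and the kappa set 93086_at in all 6 spleen arrays of time 1, 97567_f_at in 2 and Igkv6-23 102156_f_at in 1, so their spleen levels at time 1 are lower bounds.

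Jchain was the only member with an entry among the RefSeq promoter sequences used here, and its 250 bases before the start are shown because its level differed between strains in lung. They lie on the minus strand of GRCm38.p6 at chr5:88527898-88528147, with E boxes (CANNTG) in capitals.
Jchain: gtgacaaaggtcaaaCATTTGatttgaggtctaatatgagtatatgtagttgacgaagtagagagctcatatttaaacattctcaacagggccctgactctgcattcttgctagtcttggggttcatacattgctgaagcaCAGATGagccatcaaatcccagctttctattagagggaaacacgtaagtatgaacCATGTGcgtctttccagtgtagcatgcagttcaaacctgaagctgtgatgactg
The search on both strands found 3 E boxes, a motif held by 66.2% of 32851 promoter windows of this length. The immunoglobulin octamer ATGCAAAT, held by 1.6% of them, was not among these letters.

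Immunoglobulin RNA was highest in spleen for most probe sets. At time 2, where the tissues shared a run, 59 of the 72 probe sets (81.9%) were higher in spleen than in lung, liver and heart, each by limma's moderated test with Benjamini-Hochberg adjustment over all probe sets, against 13.9% of all probe sets. For 51 members (70.8%) the excess over the nearest tissue was at least 1 log2 unit, against 3.53% of all probe sets, and the median excess over the nearest tissue was 2.43. In bulk tissue fewer cells of a type and less RNA per cell cannot be told apart. Taken pair by pair, 66 members were higher and 0 lower in spleen than in lung (48.2% of all probe sets called, 26.4% higher and 21.8% lower). Against liver 60 were higher and 1 lower (57.2% of all probe sets, 29.5% and 27.7%), and against heart 60 were higher and 5 lower (63.0%, 28.0% and 34.9%). These lists include all 72 members, since no filter on low values was set.

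**Figure D1:**
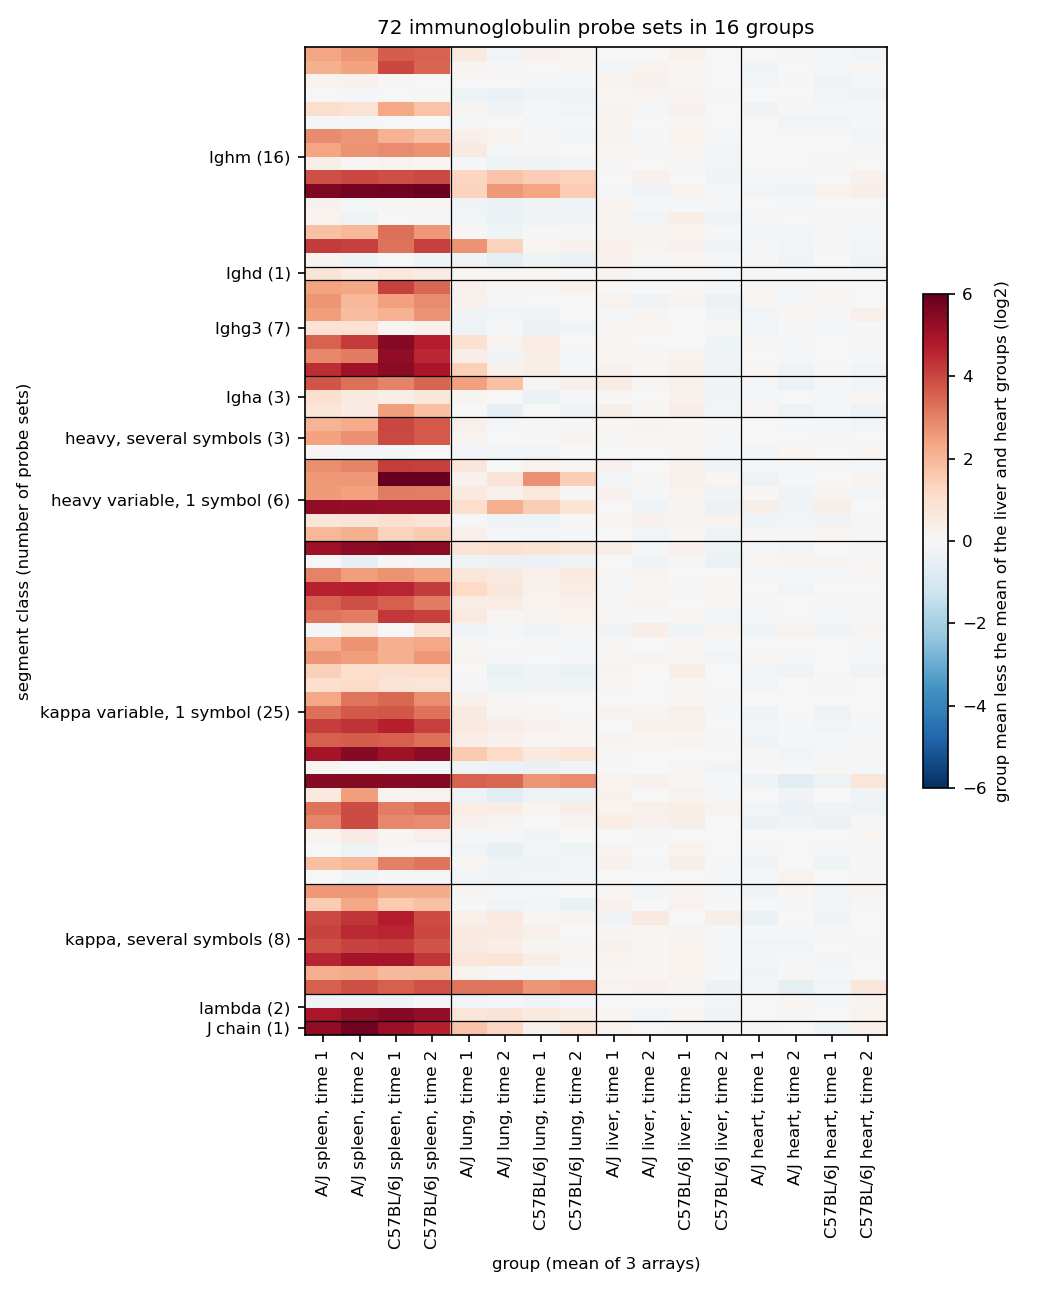
Mean of 3 arrays for each of 72 probe sets (rows, by segment class) in 16 groups (columns), as the difference from the mean of the probe set's own liver and heart groups on the log2 scale. Most rows are high in the 4 spleen groups, about 15 are also raised in lung, and 7 of the 16 rows of the Ighm class are near 0 everywhere.

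The J chain gene stood far above the other tissues in spleen, with 12.84, 12.84 and 12.79 in A/J spleen at time 1 and 12.86, 13.32 and 13.69 at time 2. Its C57BL/6J spleen values were 12.33, 13.12 and 12.68 at time 1 and 12.05, 11.58 and 12.86 at time 2. In heart it read 7.22 to 8.06 over the 12 arrays and in liver 7.17 to 7.82, so spleen did not overlap with either. At time 2 the spleen excess was 4.24 over lung, 5.24 over liver and 5.06 over heart.

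For the mu heavy chain, Ighm 93584_at read 12.76 to 13.25 in the 12 spleen arrays, 8.48 to 10.83 in lung, 6.996 to 7.66 in liver and 6.85 to 8.05 in heart. The second Ighm set with a high spleen level, 93583_s_at, exceeded lung by 2.42, liver by 3.997 and heart by 3.93 at time 2. All 7 Ighg3 sets (gamma 3 constant) and all 3 Igha sets (alpha constant) were higher in spleen than in every other tissue, led by Ighg3 97574_f_at with an excess of 4.89 over lung. Ighd 101157_at, the delta chain, was higher in spleen by only 0.44 over lung, 0.55 over liver and 0.52 over heart. The lambda set 93638_s_at (Iglc1, Iglv1) exceeded lung by 4.67, whereas Iglc1 93639_r_at had a spleen minus lung difference of -0.08, not past the test.

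The 13 members that were not higher in spleen included 7 of the 16 sets named Ighm (101276_at, 101346_at, 101749_at, 102159_at, 96966_at, 97568_at and 99885_at). Their spleen minus lung differences ran from -0.01 (101749_at) to 0.33 (101346_at), so probe sets with the same annotated symbol differed by several log2 units in their tissue contrast. The others were 4 kappa variable sets (Igkv1-135 101348_at, Igkv9-120 99396_at and 101347_at, Igkv6-14 97569_at), the heavy chain set 99421_at and Iglc1 93639_r_at.

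Of variable segments, the 6 with the largest spleen excess over lung at time 2 were Igkv1-133 99405_at (4.62), Igkv6-14 101331_f_at (4.45), Igkv4-70 101718_f_at (3.95), Igkv10-96 102157_f_at (3.88), Ighv14-2 98974_at (3.76) and Ighv14-2 92740_at (3.51). Igkv6-23 102156_f_at had a smaller excess over lung, 2.37, and one of 5.39 over liver. The 3 probe sets named Igkv9-120 and the 2 named Igkv6-14 split in the same way as Ighm, with Igkv9-120 93904_f_at 2.79 above lung and 99396_at at a difference of -0.01.

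Lung came next in order for a minority of the members. At time 2, 15 of 72 (20.8%) were higher in lung than in both liver and heart, against 19.5% of all probe sets, a share near the background. The difference was largest for the kappa set 93086_at (Igkv6-23, Igkv4-53, Igkv8-30, Igkj1, Igkc), which was 3.07 above liver and 2.95 above heart, and for Igkv6-23 102156_f_at, at 3.02 and 3.11. The Ighm sets 93584_at, 93583_s_at and 99420_at were above liver by 2.22, 1.57 and 0.83, Igha 100583_at by 1.098 and Jchain by 1.00. Between liver and lung 15 members were higher and 8 lower in lung at time 2 (61.6% of all probe sets called, 29.9% higher and 31.8% lower), and at time 1, where both tissues also shared a run, 26 were higher and 26 lower (79.3% called, 32.3% and 47.0%). Against heart 20 were higher and 12 lower (63.0% called, 27.0% and 36.0%).

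In spleen the strains differed mainly in the heavy chain. Of 72 members, 19 (26.4%) passed the test for A/J against C57BL/6J with time as an additive term, against 12.7% of all probe sets, and 4 of them were higher and 15 lower in A/J (6.05% and 6.67% of all probe sets). Of 36 heavy chain sets 1 was higher and 13 lower, and of 33 kappa sets 3 were higher and 2 lower. Neither lambda set nor Jchain passed. By class, 4 of 16 Ighm sets were lower, 3 of 7 Ighg3 sets lower and 1 higher, 1 of 3 Igha sets lower, 2 of 3 heavy chain sets with several symbols lower and 3 of 6 heavy variable sets lower. The median over all members was -0.01, the same as over all probe sets, since 34 differences were positive and 38 negative.

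The lower values were concentrated in the heavy chain family sets, a grouping by suffix that was chosen after the values were seen. Of these 15 sets 11 were lower in A/J and none was higher, with a median difference of -1.24 over the 15, whereas 3 of the 21 other heavy chain sets and 3 of the 17 kappa family sets passed. Over pairs of the 11, deviations from group means in spleen correlated at a median r of 0.71 (0.20 to 0.98), so the 11 are not separate readings. This was not particular to the 11. Their deviations correlated at a median r of 0.735 with the 15 kappa family sets not lower in A/J spleen, and those 15 among themselves at 0.67. The 11 carried the names of every heavy constant class except delta, so the names did not separate them. They were Ighm 100362_f_at, 100377_f_at, 101745_f_at and 97577_f_at, Ighg3 101752_f_at, 93927_f_at and 97008_f_at, Igha 97009_f_at, Ighv1-54 97563_f_at, and 97575_f_at and 92470_f_at with several symbols. Just outside the rule, Igh-VS107 102152_f_at also passed (-0.38) and the other 5 sets did not.

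Ighg3 97008_f_at read 8.69, 9.25 and 9.03 in A/J spleen at time 1 and 8.89, 9.43 and 9.35 at time 2. The C57BL/6J values were 10.37, 12.39 and 11.57 at time 1 and 10.31, 10.08 and 11.43 at time 2. Every C57BL/6J array lay above every A/J array, and the difference was -1.91 ± 0.33 (SE, 6 arrays per strain, limma adjusted p = 0.00176), a 3.77-fold lower level in A/J.

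Ighv1-54 97563_f_at, a variable segment of the large J558 family, read 11.32, 11.79 and 11.98 at time 1 and 12.27, 11.31 and 11.9998 at time 2 in A/J. In C57BL/6J it read 13.003, 13.23 and 12.98, then 12.72, 12.99 and 13.30. The groups did not overlap, and the difference was -1.26 ± 0.16 (limma adjusted p = 0.000273). Igha 97009_f_at was likewise without overlap, with 7.54 to 7.96 in A/J against 8.55 to 10.28 in C57BL/6J, a difference of -1.53 ± 0.21 (limma adjusted p = 0.000506). The differences of the other 8 lower family sets ran from -1.06 (Ighm 100362_f_at) to -1.70 (97575_f_at). Ighg3 93927_f_at (-1.24) lost its call on leaving out any of 6 single arrays.

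Without the 5 spleen arrays with high pancreas markers, 10 members passed, against 2.88% of all probe sets in that fit, and 9 of the 10 were among the 19 and in the same direction. Of the 11 heavy chain family sets 5 still passed (101745_f_at, 101752_f_at, 97009_f_at, 92470_f_at and 97563_f_at), and the differences of all 11 ran from -1.40 to -0.66. The tenth member was Igkv10-96 99369_f_at, higher in A/J. With 7 arrays in that fit, the part of pancreas RNA in the strain difference was not tested further.

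Macrophage markers (8 of 8 measured) averaged 11.40 to 11.63 in A/J spleen and 11.89 to 12.27 in C57BL/6J spleen. Erythroid markers (6 of 7 measured) averaged 11.60 to 12.47 in A/J and 9.38 to 11.60 in C57BL/6J. B cell markers averaged 10.82 to 11.35 in A/J and 11.10 to 11.64 in C57BL/6J. Hepatocyte markers averaged 9.47 to 10.37 in A/J spleen at time 2 and at most 9.06 in the other spleen arrays. Plasma cell markers (5 of 6 measured, Jchain among them) averaged 9.80 to 9.98 in A/J and 9.50 to 9.99 in C57BL/6J spleen. T cell markers (10 of 11 measured) averaged 9.48 to 9.70 and 9.56 to 10.06. Among the averages given here, only those of macrophage markers did not overlap between the strains. These averages were not tested, and the part of cell makeup in the immunoglobulin differences was not tested.

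The largest strain difference of any member was in Ighv14-2 92740_at, a heavy chain variable segment. In A/J spleen it read 8.07, 7.93 and 8.13 at time 1 and 7.95, 7.99 and 8.08 at time 2. In C57BL/6J spleen it read 11.97, 12.07 and 12.01 at time 1 and 11.73, 12.30 and 12.31 at time 2. The strains were separated by more than 3 log2 units in every pair of arrays, and the difference was -4.04 ± 0.09 (SE, 6 arrays per strain, limma adjusted p = 7.89e-12), a 16.5-fold lower level in A/J.

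The other probe sets of the same name did not share that size. Ighv14-2 92741_g_at, designed from the same GenBank entry as 92740_at, read 10.12 to 10.77 in A/J and 10.61 to 11.46 in C57BL/6J and differed by -0.60 ± 0.15 (limma adjusted p = 0.0161). Ighv14-2 98974_at read 10.59 to 10.97 in A/J and 10.42 to 10.93 in C57BL/6J, a difference of 0.07 ± 0.09 (limma adjusted p = 0.717). Igha 100583_at comes from the same entry as the first pair and differed by 0.32 ± 0.29 in spleen (limma adjusted p = 0.572). A change in the amount of RNA and a change in the probed sequence between the strains cannot be told apart from these levels, since probe sequences were not analysed here.

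**Figure D2:**
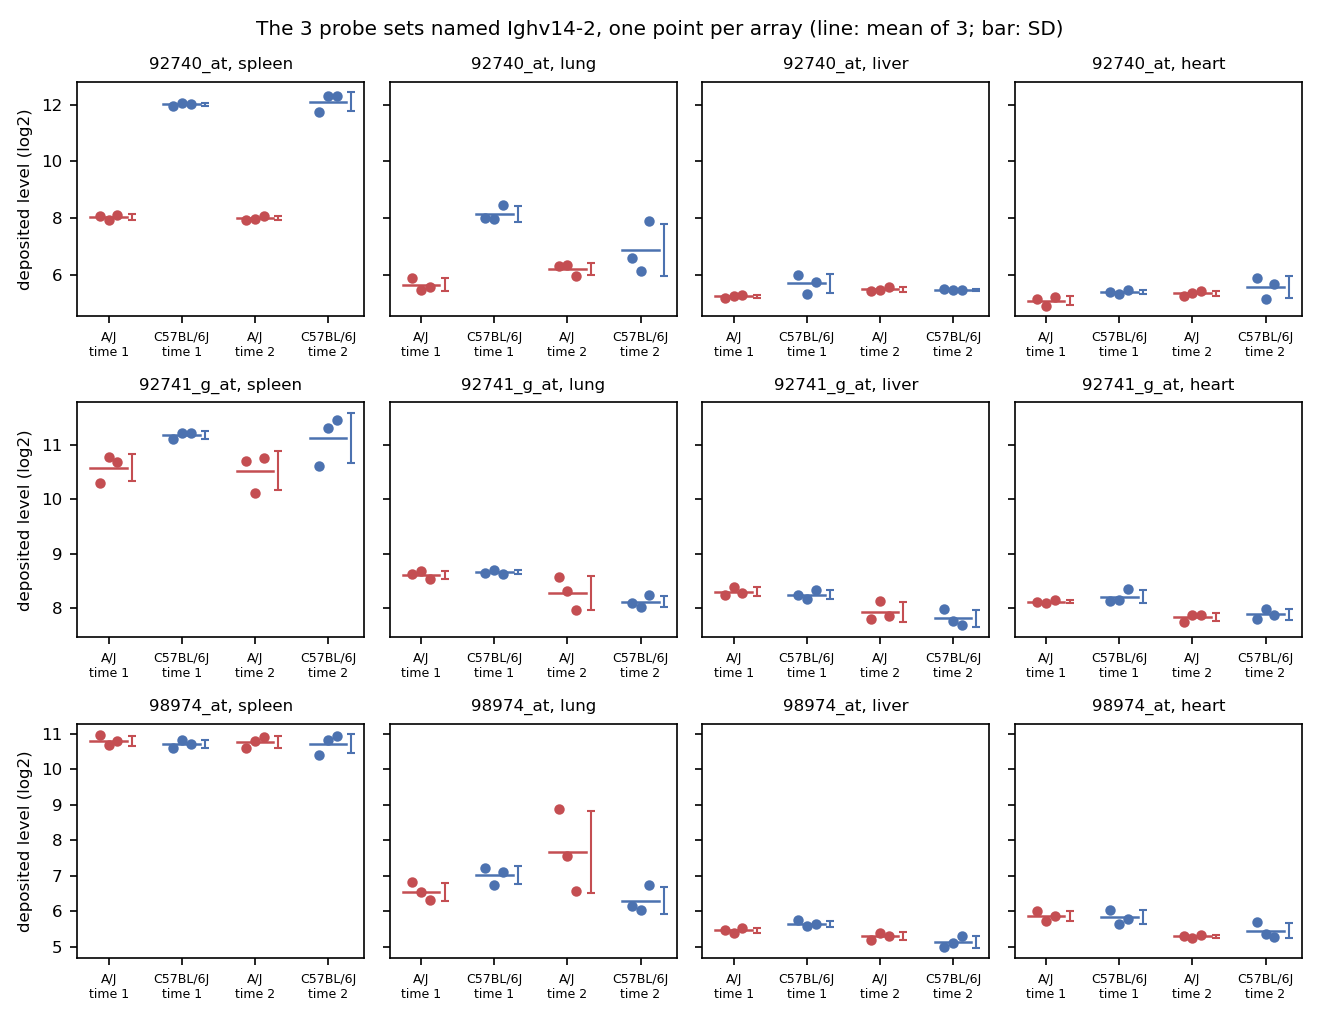
Deposited log2 level of the 3 probe sets named Ighv14-2 in every array, by tissue, strain and time, with the mean of 3 arrays (line) and SD (bar). For 92740_at the A/J spleen arrays sit at 7.93 to 8.13 and the C57BL/6J spleen arrays at 11.73 to 12.31, whereas for 98974_at the strains overlap in spleen.

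In kappa, 1 family set named Igkv9-120 and 1 named Igkv14-111 were lower in A/J spleen. Igkv9-120 93904_f_at read 11.00 to 11.80 in A/J and 12.06 to 13.30 in C57BL/6J, a difference of -1.22 ± 0.22 (limma adjusted p = 0.00256). Igkv14-111 100682_f_at read 11.66 to 12.38 against 12.51 to 13.66, a difference of -1.03 ± 0.20 (limma adjusted p = 0.00347). Neither pair of groups overlapped. The other sets of these names did not pass. Igkv9-120 99396_at differed by -0.01 ± 0.08 and 101347_at by -0.17 ± 0.08, and Igkv14-111 96974_at differed by 0.20 ± 0.21 and 100683_r_at by -0.20 ± 0.14.

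Igkv7-33 97570_at went the other way. In A/J spleen it read 8.98, 9.18 and 8.68 at time 1 and 11.11, 10.04 and 11.45 at time 2, while all 6 C57BL/6J arrays read 8.43 to 8.63. The difference over both times was 1.35 ± 0.32 (limma adjusted p = 0.0119), made up of 0.40 at time 1 and 2.297 at time 2. The change in the strain difference between times did not pass (limma adjusted p = 0.0594), nor did the strain difference without the 5 pancreas-marked arrays, at a value of 1.52. The remaining higher members in A/J were Ighg3 102723_at (0.67 ± 0.08), the kappa set 96975_at (0.37 ± 0.08) and Igkv8-19 93227_f_at (0.36 ± 0.10). The last of these lost its call on leaving out any of 9 single arrays.

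Other constant region sets did not pass in spleen. Ighm 93584_at differed by -0.19 ± 0.07, Ighd 101157_at by 0.05 ± 0.09, Ighg3 102721_at by -0.35 ± 0.27 and 102722_g_at by -0.20 ± 0.24, and Jchain by 0.62 ± 0.24. Igha 161486_f_at differed by 0.25 ± 0.13, and Ighm 101870_at and 101871_f_at by 0.82 ± 0.31 and -0.24 ± 0.20. Ighm 93583_s_at differed by 0.02 ± 0.05, with all 6 of its time 1 values at the shared highest value of their arrays.

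In lung most members that passed were higher in A/J. Of 72 members 14 (19.4%) passed, against 5.22% of all probe sets, and 13 of them were higher and 1 lower in A/J (2.7% and 2.52% of all probe sets). They were led by an alpha chain set (Igha 100583_at), a mu chain set and the J chain. The other Igha sets, 161486_f_at (difference 0.30) and 97009_f_at (-0.10), did not pass in lung. All 17 kappa family sets had a positive difference and 7 of them passed, with a median of 0.23 against -0.02 over all probe sets. Over the 72 members 54 differences were positive and 18 negative.

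Igha 100583_at read 11.72, 11.00 and 11.82 in A/J lung at time 1 and 10.73, 11.01 and 10.63 at time 2. In C57BL/6J lung it read 8.99, 9.22 and 9.13, then 9.69, 9.20 and 9.17. No A/J array overlapped with a C57BL/6J array, and the difference was 1.92 ± 0.19 (SE, 6 arrays per strain, limma adjusted p = 2.22e-05), a 3.77-fold higher level in A/J. The C57BL/6J lung values overlapped with liver, where the 12 arrays read 8.58 to 9.50.

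Ighm 99420_at read 11.93, 11.41 and 12.36 in A/J lung at time 1 and 10.26, 11.02 and 10.49 at time 2. In C57BL/6J it read 9.19, 9.34 and 9.40, then 9.59, 9.24 and 9.53. The groups did not overlap, and the difference was 1.87 ± 0.24 (limma adjusted p = 0.000333), a 3.64-fold higher level in A/J. Across the 12 lung arrays, 99420_at and Igha 100583_at deviated together from their group means (r = 0.81, and 0.94 over the 12 spleen arrays), a description of probe sets read from the same arrays. Among the other 15 sets named Ighm 1 passed in lung, 101870_at, with 8.41 to 8.98 in A/J and 7.93 to 8.44 in C57BL/6J (difference 0.38 ± 0.10, limma adjusted p = 0.0302). Ighm 93584_at differed by 0.01 ± 0.37, 93583_s_at by 0.08 ± 0.20 and 101871_f_at by 0.21 ± 0.11, and did not pass.

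Jchain read 8.96, 9.26 and 9.42 in A/J lung at time 1 and 8.63, 9.02 and 8.59 at time 2. In C57BL/6J lung it read 7.47, 7.65 and 8.17, then 8.44, 8.28 and 7.96. The highest C57BL/6J array lay below the lowest A/J array, and the difference was 0.98 ± 0.18 (limma adjusted p = 0.00418), a 1.98-fold higher level in A/J. It was 1.45 at time 1 and 0.52 at time 2, and at time 2 alone it did not pass.

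**Figure D3:**
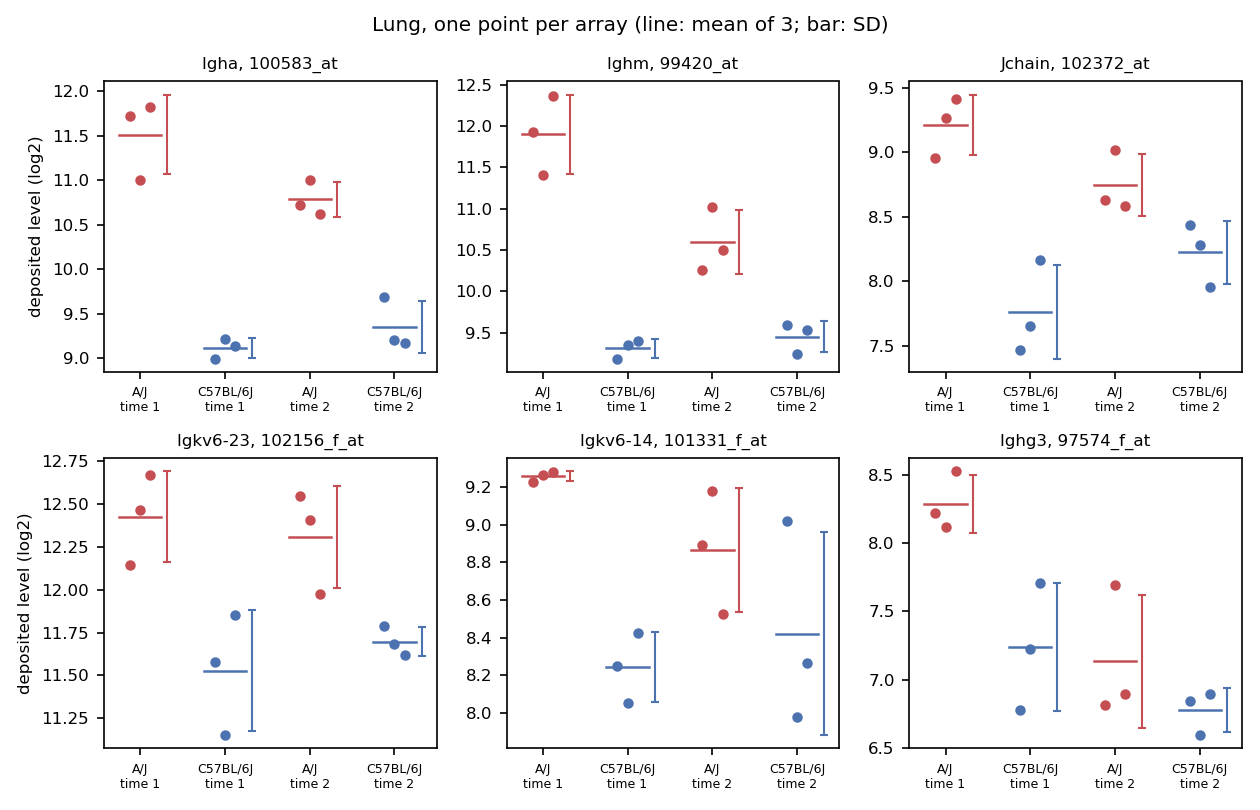
Deposited log2 level in the 12 lung arrays for the 6 members with the largest differences among those higher in A/J and past the test, by strain and time, with the mean of 3 arrays (line) and SD (bar). For Igha 100583_at the A/J arrays sit at 10.63 to 11.82 and the C57BL/6J arrays at 8.99 to 9.69, and of these 6 only Igkv6-14 101331_f_at and Ighg3 97574_f_at show overlap between strains.

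Of the light chains, Igkv6-23 102156_f_at read 12.14, 12.47 and 12.67 at time 1 and 12.55, 12.41 and 11.97 at time 2 in A/J lung, against 11.58, 11.15 and 11.85, then 11.79, 11.68 and 11.62 in C57BL/6J. The groups did not overlap, and the difference was 0.76 ± 0.13 (limma adjusted p = 0.00313). The kappa set 93086_at differed by 0.46 ± 0.09 (limma adjusted p = 0.00898), with 13.80 to 14.21 in A/J and 13.14 to 13.70 in C57BL/6J. Igkv6-14 101331_f_at was higher by 0.73 ± 0.17 and Igkv4-70 101718_f_at by 0.33 ± 0.07. The kappa sets 101640_f_at, 102585_f_at, 97567_f_at and 97566_f_at, whose symbols include Igkv4 segments and Igkc, were higher by 0.34 to 0.48 and share much of their annotation. Ighg3 97574_f_at (0.70 ± 0.19) completed the higher members. Ighg3 102722_g_at (-0.06 ± 0.06) and Igha 161486_f_at (0.30 ± 0.12) did not pass.

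The only lower member in A/J lung was again Ighv14-2 92740_at. It read 5.91, 5.48 and 5.58 in A/J at time 1 and 6.31, 6.35 and 5.95 at time 2, against 8.02, 7.96 and 8.47, then 6.59, 6.15 and 7.92 in C57BL/6J. The strains were apart at time 1 and overlapped at time 2, and the difference was -1.59 ± 0.33 (limma adjusted p = 0.011), from -2.49 at time 1 and -0.68 at time 2.

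Of the 14 lung calls 9 held on leaving out any single array, among them 100583_at, 99420_at, Jchain, 102156_f_at, 93086_at and 92740_at. The count fell to 9 without A/J time 1 replicate 2, without A/J time 2 replicate 2 or without C57BL/6J time 1 replicate 2. The time 2 arrays fitted alone gave 5 calls, 4 of them among the 14. A/J lung time 2 replicate 1 was high for Ighm 93584_at (10.83 against 8.94 and 9.89 in its group), for Ighv14-2 98974_at (8.89 against 7.56 and 6.58) and for the averaged B cell markers (9.85 against 9.35 and 9.19). Leaving it out ended the call of 97566_f_at and 97567_f_at.

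Markers of antibody-producing cells were given beside these values. The averaged plasma cell markers (5 of 6 measured, Jchain among them) ran from 8.92 to 9.26 in A/J lung and from 8.76 to 9.08 in C57BL/6J lung. The averaged B cell markers ran from 9.10 to 9.85 and from 9.01 to 9.38. Neutrophil markers (7 of 7 measured) ran from 9.25 to 9.96 in A/J lung and 9.78 to 10.66 in C57BL/6J lung. Hepatocyte markers reached 9.74 to 10.28 in A/J and 8.55 to 9.80 in C57BL/6J lung at time 1, against at most 8.53 at time 2. The part of cell makeup in the lung difference was not tested.

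Between the tissues, the strain difference itself departed for 26 members in an F test of strain by tissue over all 48 arrays (18.5% of all probe sets called). On simulated arrays with 200 changed probe sets, fewer than the F test called in the data, 12.8% of its calls were false. That fit has a single estimate of spread for tissues of unequal spread, and the part of this in the false calls was not tested. The strain difference in lung less that in spleen passed for 21 members (10.4% of all probe sets called), 19 of them with the higher value in lung (5.49% of all probe sets). All 11 lower heavy chain family sets of spleen were among the 19. They had been chosen by their strain difference in the same spleen arrays, so this overlap is not separate support. None of the 11 passed for strain in lung, where their differences ran from -0.10 (Igha 97009_f_at) to 0.36 (Ighg3 93927_f_at). At time 2, 0 of the 15 heavy chain family sets passed for lung against liver or heart (61.6% and 63.0% of all probe sets called). Their lung levels were thus not told from those tissues, and a strain difference in lung may not be readable. Igha 100583_at and Ighm 99420_at were among the 19 as well, by 1.60 ± 0.28 and 1.40 ± 0.27. Jchain, Igkv6-23 102156_f_at and 93086_at were not among the 21, and the time 1 spleen values of 93086_at are lower bounds, as given above.

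**Figure D4:**
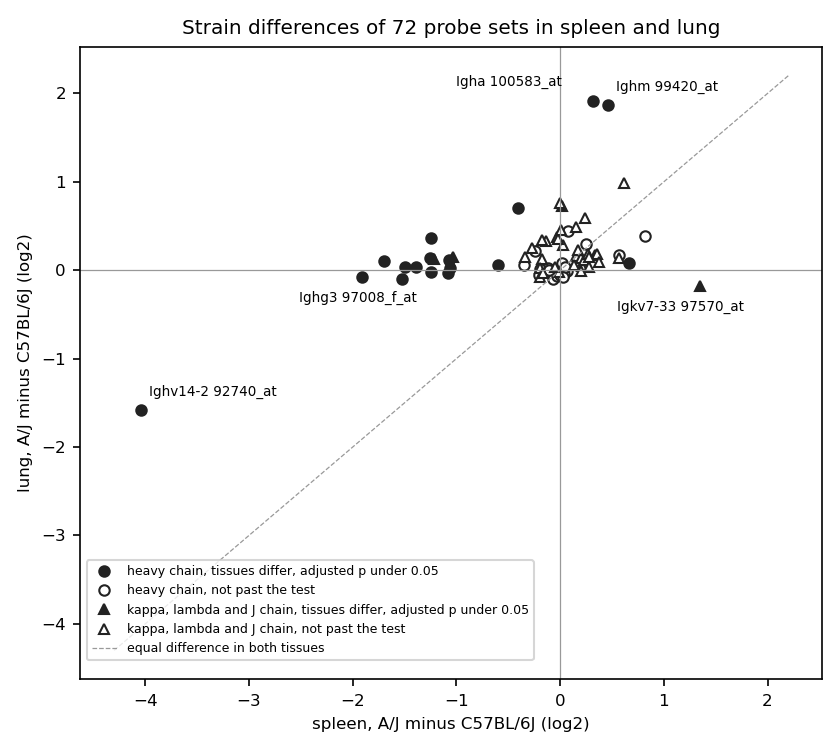
A/J minus C57BL/6J difference of each of the 72 probe sets on the log2 scale, spleen on the horizontal and lung on the vertical axis, with filled symbols where the tissues differed in the test. A row of heavy chain sets lies between -1.91 and -1.06 in spleen and near 0 in lung, while Igha 100583_at and Ighm 99420_at lie at 1.92 and 1.87 in lung. The sets of that row were not past the test for lung against liver or heart at time 2.

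In liver 0 of 72 members passed for strain (4.07% of all probe sets called at adjusted p) by limma, and 1 or 0 passed on leaving out single arrays. At an unadjusted p under 0.05 stood 10 members, a count that cannot be set against the adjusted share. The smallest p was that of Igha 100583_at, with 9.45 to 9.50 in A/J and 9.22 to 9.49 in C57BL/6J at time 1, 9.04 to 9.18 and 8.58 to 8.98 at time 2, and a difference of 0.22 ± 0.08 (limma adjusted p = 0.151). At time 2 within the same fit 10 members were higher in A/J and none lower (12.9% of all probe sets called, 5.0% higher), and 6 were when the time 2 arrays were fitted alone. C57BL/6J liver time 2 replicate 2 had averaged pancreas markers of 12.90, against 9.32 to 9.77 in the other liver arrays, and its part in these counts was not tested.

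In heart 1 member passed, lower in A/J, against 7.48% of all probe sets called and 2.91% lower. Ighm 93584_at read 7.05, 7.05 and 7.35 at time 1 and 6.98, 7.39 and 6.85 at time 2 in A/J, against 7.66, 7.38 and 7.43, then 8.05, 7.38 and 7.66 in C57BL/6J. The strains overlapped, the difference was -0.48 ± 0.12 (limma adjusted p = 0.0213), and the call was lost without A/J time 2 replicate 1 or replicate 3. In a single fit over all 48 arrays this set did not pass, and Igkv6-23 102156_f_at (-0.70) did. Lung epithelium markers averaged 10.29 to 11.05 in C57BL/6J heart and 9.61 to 10.10 in A/J heart at time 1, and macrophage markers 9.83 to 10.11 and 9.53 to 9.88 over both times. Their part in the heart difference was not tested. In C57BL/6J heart at time 2 the kappa set 93086_at read 12.66, 10.15 and 11.67 against 10.17 to 10.25 in A/J. Replicates 1 and 3 of that group stood above the other 10 heart arrays, which read at most 10.75.

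**Figure D5:**
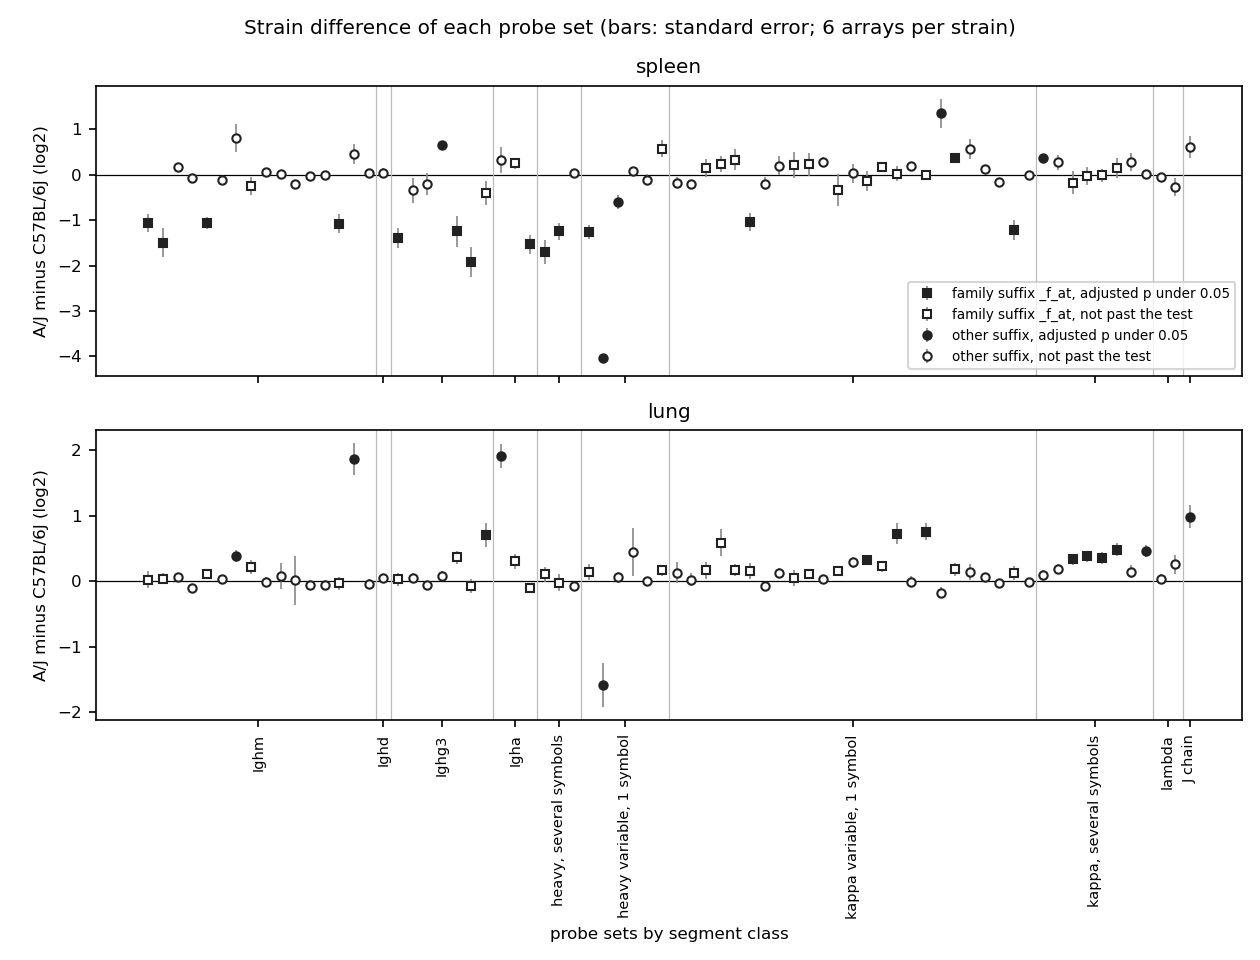
A/J minus C57BL/6J difference with its standard error for each of the 72 probe sets by segment class, in spleen and lung (6 arrays per strain), with squares for family sets and filled symbols for adjusted p under 0.05. Filled squares on the heavy chain side lie between -1.91 and -1.06 in spleen, and the filled points of lung are above 0 except Ighv14-2 92740_at at -1.59.

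Between times, which cannot be told apart from array runs, no member's strain difference changed past the limma test in any tissue. Of all probe sets 0.209% in spleen, 0.177% in lung, 4.90% in liver and 0.386% in heart were called at adjusted p. At an unadjusted p under 0.05 stood 19 members in spleen, 16 in lung, 18 in liver and 6 in heart. These counts cannot be set against the adjusted shares. The level itself differed between times for 10 members in spleen, 6 higher and 4 lower at time 2 (31.9% of all probe sets called, 13% higher and 18.9% lower). The 6 include the kappa set 93086_at (0.27), whose time 1 spleen values all stood at the shared highest value of their arrays and are lower bounds. In lung 15 differed, 1 higher and 14 lower (34.7%, 15.8% and 18.9%). In liver 34 differed, 2 higher and 32 lower (50.3%, 20.2% and 30.1%), and in heart 19, 12 higher and 7 lower (34.9%, 15.7% and 19.3%). The members' share of calls in each tissue, 13.9%, 20.8%, 47.2% and 26.4%, was below that of all probe sets. By direction this did not hold in liver, where 32 of 72 members were lower at time 2, a larger share than the 30.1% of all probe sets. After quantile normalization the splits were 4 higher and 6 lower in spleen, 4 and 13 in lung, and 6 and 27 in liver. After median centring they were 7 and 3 in spleen, 4 and 12 in lung, and 3 and 28 in liver.

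The kappa variable set with the largest rise between times was Igkv7-33 97570_at in spleen (0.97 ± 0.32), from its A/J arrays alone as given above. Igkv14-111 100683_r_at was higher at time 2 in every tissue, by 0.83 in spleen, 0.21 in lung, 0.50 in liver and 0.43 in heart. Its partner from the same GenBank entry, 100682_f_at, did not pass in any of the 4. In lung the largest falls were those of Ighg3 97574_f_at (-0.81), 93927_f_at (-0.58) and 97008_f_at (-0.54). In liver the variable segment with the largest fall was Igkv1-133 99405_at (-0.51), and in heart Ighv14-2 98974_at (-0.48). Without the 5 pancreas-marked arrays 0 members passed between times in spleen.

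Other genes of the antibody system were read from lists. Of 18 measured B cell receptor and B cell genes, 7 were lower and 1 higher in A/J spleen, with a median of -0.24, where 12.7% of all probe sets passed. Cd79a, a signalling chain of the B cell receptor, differed by -0.83 ± 0.09 (limma adjusted p = 8.74e-05), Cd22, an inhibitory coreceptor, differed by -0.59, and Ly6d, a B lineage surface protein, by -2.24. Cd24a, a surface protein of immature B cells also carried by erythroid cells, differed by 0.84. In lung 1 of the 18 passed, Ly6d (-0.34), where 5.22% of all probe sets did.

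Of 16 measured plasma cell and secretion genes 1 was higher and 1 lower in A/J spleen, a share near that of all probe sets. They were Ell2 (0.72), an elongation factor used in the switch to secreted heavy chain RNA, and Sec61b (-0.45), part of the protein channel of the endoplasmic reticulum. None of the 16 passed in lung or liver by limma, and 1 did in heart. Of 11 measured precursor B cell and recombination genes 1 was lower in spleen, Vpreb3 (-0.35), a protein of immature B cells. None of them passed in lung.

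Of 11 measured antibody receptor and transport genes 2 were higher and 1 lower in A/J lung, against 5.22% of all probe sets. The calls were not confined to lung. In heart 3 were lower and 0 higher (7.48% of all probe sets called, 2.91% lower), in liver 1 was lower (4.07% called), and in spleen 0 passed. The genes given next are those of lung. Pigr, the receptor that carries polymeric IgA and IgM across epithelium, read 11.45 to 11.48 in A/J and 10.86 to 11.16 in C57BL/6J at time 1. At time 2 it read 12.26 to 12.58 and 11.61 to 12.49, so the strains overlapped at time 2 only, and the difference was 0.44 ± 0.12 (limma adjusted p = 0.0412). Lgals3, a galectin that binds IgE, differed by 0.69 and Fcgr2b, the inhibitory IgG receptor, by -0.39.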

How the data were processed

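Values were the authors' deposited log2 levels of 48 Affymetrix MG-U74Av2 arrays, 1 per sample. Per the labels, targets followed the standard Affymetrix procedure. The summary and normalization steps are not given in the sources used here, and the array medians of the deposited log2 table lay close together. Gene symbols came from the platform annotation, which can be old, and all 36 member symbols were found in the RefSeq gene table. Probe sets numbered 12488, of which 66 controls were left out.

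Strain, time and tissue contrasts were fitted with limma 3.58.1 (R 4.3.3) on all 12422 probe sets, with Benjamini-Hochberg adjustment and a limit of 0.05. Strain was fitted per tissue with time as an additive term, tissues on the 24 arrays of time 2, and strain by tissue on all 48. Whether the tissues of a group come from the same animals is not stated. Folds are 2 to the log2 difference, and a ± after a difference is its SE. On simulated arrays with 200 changed probe sets among 12422, a strain change of 1 log2 unit was found for 98% in spleen and 100% in lung, and one of 0.5 for 89% and 96%. For strain by time in spleen the shares were 83% and 24%. False calls were 4.59% of calls in the spleen strain test, but 12.8% for strain by tissue and 17.4% for spleen against lung. In the latter fits tissues with unequal spread share 1 estimate, and the part of this in the false calls was not tested. These shares belong to 200 changed probe sets, fewer than were called in the data.

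Named variable segments were those with the largest called differences per tissue and direction, those with the largest spleen excess, and the largest time differences. Constant region sets were given by class, with values for most, and other genes came from 4 lists. Members, lists and tests were chosen with earlier results of these data known. Alternatives were quantile normalization, median centring, a filter on the lowest 25% of probe sets, a trended robust prior, a replicate block, single times or strains, 1 fit over all arrays, each array left out, and, chosen after seeing the data, leaving out 5 spleen arrays.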

Additional observations from a re-analysis of the deposited data

Results flagged for a closer look

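For 21 members the A/J minus C57BL/6J difference in lung departed from that in spleen in a test of that difference over 48 arrays (limma, adjusted over all probe sets). The values are log2, lung less spleen. Among the sets named Ighm they were 1.09 (100362_f_at), 1.53 (100377_f_at), 1.18 (101745_f_at), 1.04 (97577_f_at) and 1.40 (99420_at). Among the sets named Ighg3 they were 1.42 (101752_f_at), -0.58 (102723_at), 1.61 (93927_f_at), 1.84 (97008_f_at) and 1.11 (97574_f_at). The Igha sets gave 1.60 (100583_at) and 1.43 (97009_f_at), and the heavy chain sets with several symbols 1.80 (97575_f_at) and 1.22 (92470_f_at). Among variable segments the values were 1.40 (Ighv1-54 97563_f_at), 2.46 (Ighv14-2 92740_at), 0.66 (Ighv14-2 92741_g_at), 1.19 (Igkv14-111 100682_f_at), 0.71 (Igkv6-14 101331_f_at), -1.53 (Igkv7-33 97570_at) and 1.35 (Igkv9-120 93904_f_at). For most of these sets the departure came from the spleen difference, whereas for 99420_at, 97574_f_at, 100583_at and 101331_f_at the lung difference was the larger in size and passed its own test.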

How the results depend on the processing

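Quantile normalization, median centring, the trended prior and the single fit over all arrays kept each count of calls within 1.5 times, and no strain difference that passed for a member changed sign under the alternatives run for it (588 values kept the call and 103 lost it). For the time, tissue and strain by tissue results only counts were compared. Leaving out the lowest 25% of probe sets gave 12 strain calls in spleen and 1 for strain by time in liver. Leaving out the 5 spleen arrays with high pancreas markers gave 10 for strain and 0 for time in spleen. Time 2 alone gave 5 strain calls in lung, 6 in liver and 0 in heart, and time 1 alone 0 in heart. A/J alone gave 17 time calls in spleen, 25 in lung, 16 in liver and 9 in heart, and C57BL/6J alone gave 1 in spleen, 1 in lung and 7 in heart. Liver and lung at time 1 gave 52 calls between them. These fits held fewer arrays or probe sets, and some gave more calls than the main fit while others gave fewer. The cause was not tested. With each array left out in turn, strain calls ranged from 17 to 20 in spleen, 9 to 14 in lung, 0 to 1 in liver and 0 to 2 in heart. Strain by time calls ranged from 0 to 3 in spleen, 0 to 2 in lung, 0 to 7 in liver and 0 to 2 in heart, and the 7 arose without A/J liver time 2 replicate 2. Time calls ranged from 6 to 12 in spleen, 9 to 22 in lung, 29 to 36 in liver and 15 to 20 in heart, with the lowest counts in spleen and lung without A/J spleen time 1 replicate 2 and A/J lung time 1 replicate 3. Spleen calls ranged from 64 to 66 against lung, 60 to 62 against liver and 63 to 65 against heart, lung calls from 19 to 26 against liver and 30 to 36 against heart, and strain by tissue calls from 25 to 30.

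Replicate numbers were not used as pairs in the main fits. Within a tissue and time, same-numbered deviations of the strains correlated over 0.1 in 7 of 24 pairs, with r from -0.58 to 0.36. Pairs with different numbers were not compared, and whether a number links tissues of the same animal was not examined, so these values do not settle pairing. With the replicate block 21 members passed for strain in spleen, 12 in lung, 0 in liver and 1 in heart.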
